A study of Homo sapiens with 16 samples.

Results

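The genes described here are 45 interferon-induced effectors other than the OAS and IFIT families: the MX GTPases, the ISG15 conjugation system, RNA-directed enzymes and helicases, ADP-ribosylation enzymes, TRIM proteins, membrane restriction factors, lectins, and a few growth, death and nuclear regulators. They were taken from a list of symbols and looked up in the gene count table through their Ensembl identifiers, and 45 of 45 were found among 60676 genes. The count filter kept 16503 genes for testing, and 45 of 45 members were among them. The lookup rule used no measured value, but the list itself was chosen with earlier results of these data known.

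Type I interferon binds IFNAR1 and IFNAR2, and the receptor-bound kinases JAK1 and TYK2 then activate the transcription factor complex ISGF3, of which IRF9 is a part. This complex binds the interferon-stimulated response element in the promoters of a large set of genes, whose products block virus entry, replication and release. Many of these genes have a basal level without any virus, and monocytes and macrophages respond strongly to interferon.

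RNA sequencing was done on THP-1, a human acute monocytic leukemia cell line that takes on macrophage features under phorbol-12-myristate-13-acetate (PMA), an activator of protein kinase C. The groups were shUHRF1 PMA, shDNMT1 PMA, shDNMT3B PMA and shNC PMA, and shUHRF1 DMSO, shDNMT1 DMSO, shDNMT3B DMSO and shNC DMSO, with 2 libraries each. DMSO is the solvent control, and treatment lasted 48 h. DNMT1 keeps up existing CpG methylation through cell division with the help of UHRF1, which reads hemimethylated sites, and DNMT3B is a de novo DNA methyltransferase. Every line, shNC included, carried a lentiviral short hairpin and was selected with puromycin. The shNC hairpin is the negative control, and each target was represented by 1 line. Neither the labels nor the methods say whether the 2 libraries of a group came from separate cultures, so p-values measure only the spread between these libraries, which may be technical.

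Total counts ran from 13883556 to 23151864 per library, with 20384066 to 23151864 in libraries numbered 1 and 13883556 to 15679327 in libraries numbered 2. Mitochondrially encoded genes took 7.71% to 29.0% of counts in libraries numbered 1 and 3.92% to 14.5% in libraries numbered 2. Within each line and number this share was lower in PMA than in DMSO, as with 10.3% and 4.76% in shNC PMA against 24.4% and 9.97% in shNC DMSO, and its part in the PMA responses was not tested. Levels are given as CPM, read counts relative to the library's scaled total. In DMSO, edgeR's quasi-likelihood test gave no call for the targeted genes in the lines named after them: UHRF1 had 72.0 and 91.2 CPM in shUHRF1 against 87.1 and 123 CPM in shNC, DNMT1 had 82.4 and 111 CPM in shDNMT1 against 89.6 and 140.2 CPM in shNC, and DNMT3B had 6.40 and 6.87 CPM in shDNMT3B against 8.73 and 9.73 CPM in shNC. After PMA each target was higher by value in its own line: UHRF1 had 9.62 and 12.2 CPM in shUHRF1 against 4.62 and 7.43 CPM in shNC, DNMT1 had 84.1 and 99.7 CPM in shDNMT1 against 56.9 and 78.0 CPM in shNC, and DNMT3B had 2.74 and 3.19 CPM in shDNMT3B against 1.26 and 1.59 CPM in shNC. The DNMT3B difference was called (log2 1.06, edgeR adjusted p = 0.0069), which goes against that line's label. Such rises were not particular to a target's own line. After PMA DNMT3B was also called higher in shDNMT1 than in shNC (0.88, edgeR adjusted p = 0.023). UHRF1 was called higher in shDNMT1 (2.52, edgeR adjusted p = 8.96e-05) and in shDNMT3B (2.33, edgeR adjusted p = 0.00015). The transcript counts thus gave no target a lower call in its own line. Protein was not measured in these counts, and the study checked the knockdowns by western blot of the target proteins. It also reported a global loss of methylation in DNMT1-depleted cells, but not with UHRF1 or DNMT3B depletion. The names shUHRF1, shDNMT1 and shDNMT3B, called the targeting lines here, stand for the lines so labelled. Leukemic myeloid markers such as AZU1, CTSG and MYB were present in DMSO, and in shNC after PMA 6 of 8 of them were called lower and 1 higher (SPI1), and 7 of 8 macrophage markers were called higher and 1 lower (MARCO). Hemoglobin transcripts stood out in library 1 of shNC DMSO (HBB 232 CPM, HBA2 184 CPM) and were at most 1.30 CPM elsewhere, with 0 in library 2 of the same group. Markers of T cells, B cells, NK cells and plasmacytoid dendritic cells had 1 or 2 measurable genes per list, and the epithelial markers had none.

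A short stretch of promoter DNA recurs near the starts of many of these genes, which were listed as interferon-induced. RefSeq promoters (GRCh38.p14, 250 bases before to 50 after each annotated start) were listed for 38 of 45 members, and MX2, USP18, PARP10, TRIM22, IFITM2, LAMP3 and SIGLEC1 had no entry. The core of the interferon-stimulated response element, searched as GAAA, any pair of bases (NN) and GAAA on either strand (TTTC, NN, TTTC when it lies on the opposite strand), was found in 25 of 38 members (65.8%). Over the whole table, 1195 of 27305 gene symbols (4.38%) had it in at least 1 promoter, or 1255 of 35116 promoters (3.57%). These are matches of letters and not sites of measured binding. The 3 promoters printed here belong to members among those furthest below shNC in DMSO, with the matched bases in capitals and each read 5′ to 3′ on the gene strand. ISG15 lies on the plus strand (window chr1:1013247-1013546), EPSTI1 on the minus strand (chr13:42992192-42992491) and IFITM1 on the plus strand (chr11:313790-314089).
ISG15: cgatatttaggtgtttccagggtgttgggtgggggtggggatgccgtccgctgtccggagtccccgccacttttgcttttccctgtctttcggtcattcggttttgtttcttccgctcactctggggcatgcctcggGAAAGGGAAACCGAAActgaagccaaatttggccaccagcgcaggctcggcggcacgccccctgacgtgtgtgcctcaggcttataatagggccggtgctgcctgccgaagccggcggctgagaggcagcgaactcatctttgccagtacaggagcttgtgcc
EPSTI1: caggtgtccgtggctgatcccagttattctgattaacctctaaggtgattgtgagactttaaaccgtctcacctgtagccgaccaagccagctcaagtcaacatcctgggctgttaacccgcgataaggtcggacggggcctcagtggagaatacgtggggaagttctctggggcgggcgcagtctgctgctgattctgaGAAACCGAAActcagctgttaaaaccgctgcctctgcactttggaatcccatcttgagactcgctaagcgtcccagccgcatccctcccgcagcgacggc
IFITM1: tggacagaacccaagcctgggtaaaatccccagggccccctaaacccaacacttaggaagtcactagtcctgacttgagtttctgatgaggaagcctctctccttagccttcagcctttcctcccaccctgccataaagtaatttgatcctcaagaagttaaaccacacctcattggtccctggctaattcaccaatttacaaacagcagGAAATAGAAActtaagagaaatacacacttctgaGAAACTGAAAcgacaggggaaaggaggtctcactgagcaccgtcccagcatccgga
In ISG15 a pair of matches overlap into a continuous run, and in IFITM1 the second match spans the annotated start.

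The same core in its closest surroundings is shown for 7 other members, as 10 bases on each side of the match, to let the flanks be compared.
MX1 (chr21:41420559-41420588, plus strand): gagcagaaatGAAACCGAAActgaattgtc
ISG20 (chr15:88638937-88638966, plus strand): taacaaactaGAAACTGAAAcagggtcggg
LGALS3BP (chr17:78979962-78979991, minus strand): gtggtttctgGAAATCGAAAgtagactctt
IFITM3 (chr11:320876-320905, minus strand): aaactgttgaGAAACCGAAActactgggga
DDX60 (chr4:168318786-168318815, minus strand): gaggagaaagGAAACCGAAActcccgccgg
DTX3L (chr3:122564322-122564351, plus strand): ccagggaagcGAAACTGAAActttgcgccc
PARP9 (chr3:122564322-122564351, minus strand): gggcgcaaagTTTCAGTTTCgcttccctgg
DTX3L and PARP9 face away from each other on chromosome 3, and their lines show the same 10 bases of the genome (122564332 to 122564341) read from opposite strands. The 13 members with a listed promoter and no match were HERC6, UBE2L6, TRIM25, ADAR, HELZ2, TDRD7, SAMD9L, XAF1, SP100, SP110, BATF2, IFI35 and CMPK2. Median log2 fold changes against shNC in DMSO were -1.33 with a match and -1.18 without in shUHRF1, -2.26 and -1.94 in shDNMT1, and -2.02 and -1.53 in shDNMT3B. For PMA in shNC they were 1.67 and 1.35, with lowest values of -0.45 and 0.13. These differences were not tested. Only the exact core inside the window was searched, and the TDRD7 window ends within a partial match, so these 13 may still hold the element.

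**Figure D1:**
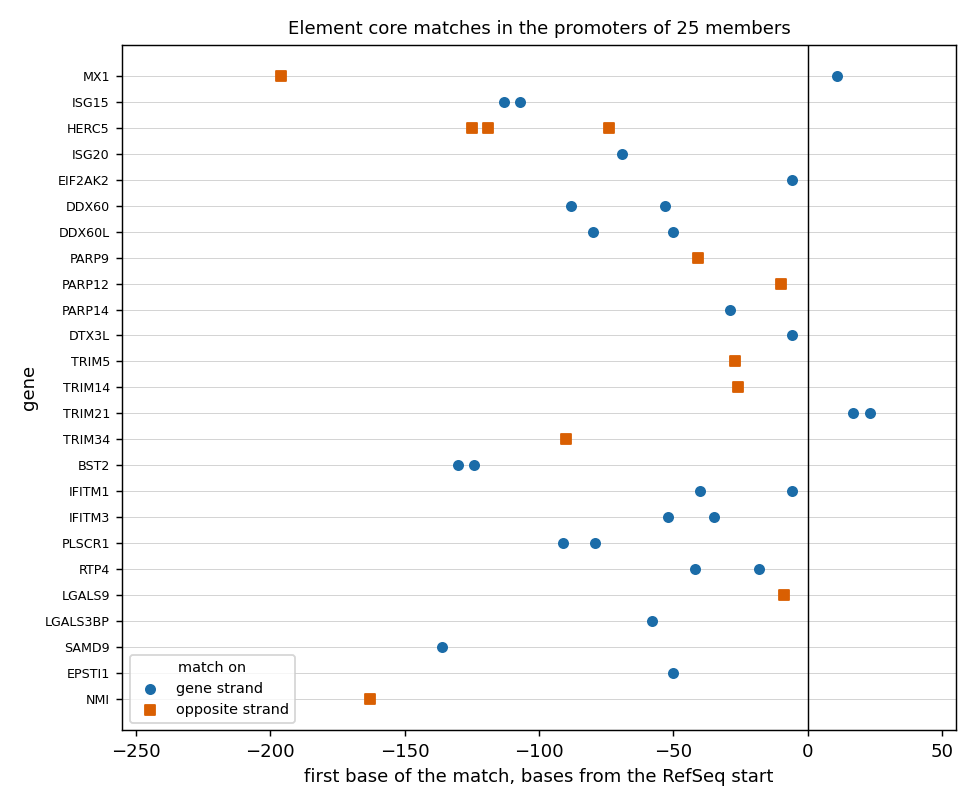
Position of each match to the element core in the listed promoters of 25 members, in bases from the RefSeq start (x axis, 0 is the start), by gene (y axis). Circles mark matches on the gene strand and squares matches on the opposite strand, and the matches lie between -196 and 23.

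Comparing each targeting line with shNC in DMSO asked whether the basal level of these effectors depended on the line. It was lower in all 3 targeting lines for 45 of 45 members by sign. By edgeR's quasi-likelihood test, 31 members were called lower in shUHRF1, 39 in shDNMT1 and 38 in shDNMT3B (Benjamini-Hochberg adjusted p under 0.05 over all genes). Over all genes tested, 1.15% were called lower in shUHRF1, 3.39% in shDNMT1 and 2.89% in shDNMT3B. None was called higher in any of the 3 lines, where 0.17%, 0.57% and 1.62% of all genes were, and none was higher at an unadjusted p under 0.05, with DESeq2 or with the DEGES exact test, which is the kind of test the study used. The median log2 fold change of the members was -1.29 in shUHRF1, -2.26 in shDNMT1 and -2.02 in shDNMT3B, beside -0.04, -0.04 and -0.02 over all genes. The 3 comparisons share the same 2 shNC DMSO libraries, so they are not independent of each other. Within libraries numbered 1 and within those numbered 2, 45 of 45 members were again lower in each targeting line. Leaving out library 2 of shNC DMSO brought the count in shUHRF1 to 20, and leaving out library 1 of shUHRF1 DMSO brought it to 18. Without library 1 of shNC DMSO, the library with hemoglobin transcripts, 23, 36 and 32 members were called lower in shUHRF1, shDNMT1 and shDNMT3B. In bulk RNA, fewer cells with a transcript and less of it per cell cannot be told apart. As shNC is the only control line in these counts, a raised level in shNC and a reduced level in the targeting lines cannot be told apart either. Lower thus means lower than in shNC.

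**Figure D2:**
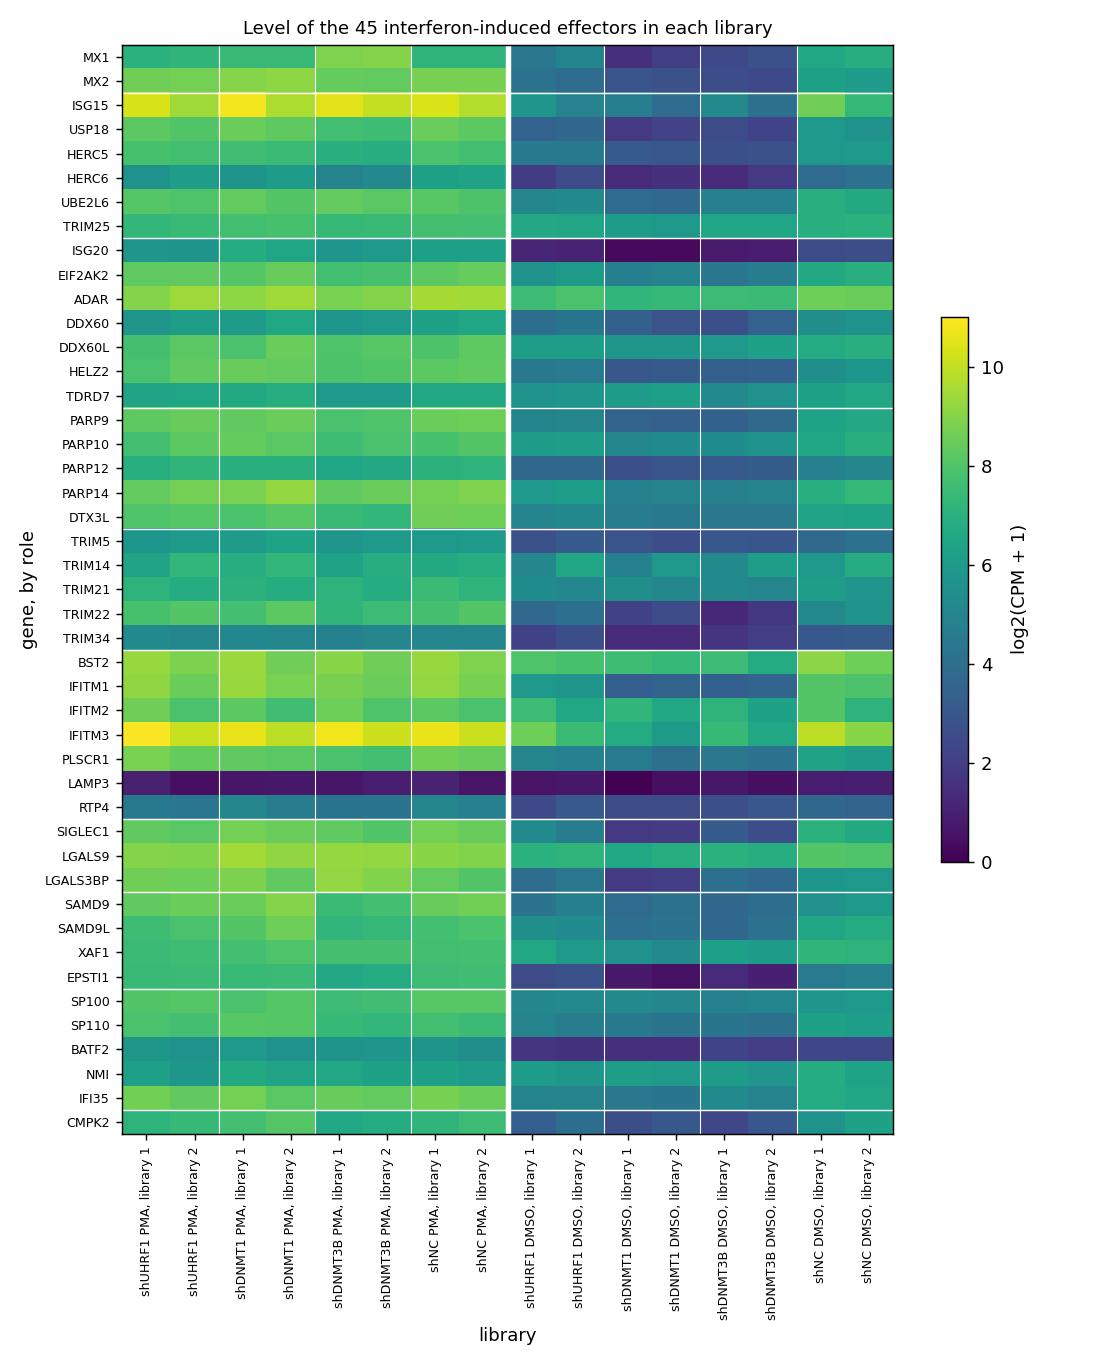
Level of 45 members (rows, in the order of their roles) in 16 libraries (columns, PMA left and DMSO right), as log2(CPM + 1) on the color scale. The DMSO libraries of the targeting lines are darker than those of shNC in most rows, and the PMA libraries look alike across the 4 lines.

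The MX GTPases, which trap viral nucleocapsids in the cytoplasm or at the nuclear pore, showed the difference from shNC plainly. In DMSO, MX1 had 19.3 and 30.6 CPM in shUHRF1, 1.90 and 3.17 CPM in shDNMT1 and 4.39 and 5.60 CPM in shDNMT3B, against 95.1 and 114 CPM in shNC. No targeting-line library overlapped with shNC. MX1 was lower by log2 -5.36 ± 0.29 in shDNMT1 (SE, edgeR adjusted p = 2.61e-07), -4.38 in shDNMT3B and -2.06 in shUHRF1. MX2 had 16.5 and 13.6 CPM in shUHRF1, 6.46 and 5.56 CPM in shDNMT1 and 5.13 and 4.33 CPM in shDNMT3B, against 76.0 and 65.5 CPM in shNC. It was lower by test in all 3 lines, with log2 fold changes of -2.23 ± 0.17, -3.56 ± 0.18 and -3.90 ± 0.19 (SE, edgeR adjusted p = 3.7e-05, 1.95e-07 and 1.1e-07 in that order).

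ISG15 is a ubiquitin-like protein that UBE2L6 (conjugating enzyme) and HERC5 (ligase) attach to other proteins and USP18 removes. HERC6 is the related ligase that acts in the mouse, and TRIM25 is a ubiquitin ligase that can also take part in this conjugation. Of these 6 members, 5 were called lower in shUHRF1, 6 in shDNMT1 and 6 in shDNMT3B, TRIM25 being the exception in shUHRF1. ISG15 had 54.5 and 28.1 CPM in shUHRF1, 25.6 and 13.4 CPM in shDNMT1 and 35.6 and 15.7 CPM in shDNMT3B, against 388 and 159 CPM in shNC. Its spread between libraries was wide. Its difference from shNC of -2.73 ± 0.60 (log2, SE) in shUHRF1, the largest of a member in that line, passed only narrowly (edgeR adjusted p = 0.049). That call did not hold when upper-quartile factors were used (edgeR adjusted p = 0.058). It was also lost in most of the fits that left out a single library, among them libraries outside this comparison. Without library 1 of shNC DMSO the log2 fold change was -1.94. HERC5 had 20.6 and 20.9 CPM in shUHRF1, 7.60 and 6.81 CPM in shDNMT1 and 5.5 and 5.65 CPM in shDNMT3B, against 57.8 and 61.2 CPM in shNC. Its 2 libraries were close in every group, and its difference from shNC had the smallest adjusted p of the members in shDNMT3B (log2 -3.41 ± 0.15, SE, edgeR adjusted p = 6.01e-08). USP18, which also blunts receptor signaling, had 10.1 and 11.8 CPM in shUHRF1, 2.66 and 3.69 CPM in shDNMT1 and 4.92 and 3.61 CPM in shDNMT3B, against 57.9 and 49.2 CPM in shNC.

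Among the RNA-directed members, the exonuclease ISG20 had few counts in DMSO. It had 1.26 and 1.05 CPM in shUHRF1, 0.217 and 0.208 CPM in shDNMT1 (4 counts in each library) and 0.740 and 0.865 CPM in shDNMT3B, against 4.89 and 5.21 CPM in shNC. The change of -4.53 ± 0.26 (log2, SE) in shDNMT1, with an edgeR adjusted p of 3.65e-07, thus rests on few reads. EIF2AK2, the RNA-activated kinase PKR that halts translation, was lower by 1.03, 2.05 and 2.38 on the log2 scale in shUHRF1, shDNMT1 and shDNMT3B. ADAR, the adenosine deaminase that edits double-stranded RNA, had 186 and 227 CPM in shUHRF1, 149.8 and 157 CPM in shDNMT1 and 185 and 177 CPM in shDNMT3B, against 383 and 367 CPM in shNC. Its changes were among the smaller ones that passed, at -0.86, -1.29 and -1.05. The helicase HELZ2 and the RNA sensor helicase DDX60 were called lower in all 3 lines, while TDRD7 was called in shDNMT3B alone (log2 -1.02, against -0.72 in shUHRF1 and -0.32 in shDNMT1).

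The 5 ADP-ribosylation genes include the partners PARP9 and DTX3L, which form a complex of a macrodomain protein and a ubiquitin ligase. In shUHRF1 4 of them were called lower, and 5 were in shDNMT1 and in shDNMT3B. PARP9 had 30.5 and 30.8 CPM in shUHRF1, 10.4 and 9.41 CPM in shDNMT1 and 9.67 and 13 CPM in shDNMT3B, against 83.1 and 99.2 CPM in shNC. DTX3L, whose promoter window overlaps that of PARP9, had 30.6 and 34.1 CPM in shUHRF1, 23.7 and 20.9 CPM in shDNMT1 and 19.8 and 19.3 CPM in shDNMT3B, against 86.0 and 81.2 CPM in shNC. The neighbors thus did not differ from shNC alike in shDNMT1, with log2 fold changes of -3.20 for PARP9 and -1.91 for DTX3L, a difference between genes that was not tested. The 2 genes overlap on opposite strands, and whether reads were counted by strand is not given in the sources used here.

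TRIM5, which recognizes retroviral capsids, and TRIM22, a nuclear antiviral ligase, were called lower in all 3 lines. TRIM22 had 12.5 and 15.0 CPM in shUHRF1, 3.37 and 4.68 CPM in shDNMT1 and 1.37 and 2.44 CPM in shDNMT3B, against 35.7 and 47.7 CPM in shNC. Its log2 fold changes were -1.60, -3.37 and -4.44. TRIM14 was not called in any line (log2 -0.50, -1.0 and -0.67), and its libraries numbered 1 were below those numbered 2 in 8 of 8 groups.

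The IFITM proteins sit in endosomal and plasma membranes and hinder virus fusion, and BST2 (tetherin) holds budding virions at the cell surface. IFITM1 had 58.0 and 51.8 CPM in shUHRF1, 8.80 and 10.4 CPM in shDNMT1 and 9.25 and 11 CPM in shDNMT3B, against 262 and 240.0 CPM in shNC. That made it the member furthest below shNC in shDNMT3B (log2 -4.63 ± 0.31, SE, edgeR adjusted p = 2e-06). IFITM3 had 384 and 181 CPM in shUHRF1, 108 and 63.7 CPM in shDNMT1 and 162 and 94.1 CPM in shDNMT3B, against 955 and 522 CPM in shNC, and was called in shDNMT1 and shDNMT3B. IFITM2 was not called in any line (-0.55, -0.69 and -0.86). IFITM1, IFITM2 and IFITM3 lie next to each other on chromosome 11 and are close in sequence, so that the split of reads among them is uncertain. PLSCR1, a scramblase that restricts several viruses, was lower in all 3 lines (-1.33, -2.0 and -2.02).

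SIGLEC1, the sialic acid receptor of macrophages and a usual marker of interferon exposure in monocytes, had 35.9 and 23.6 CPM in shUHRF1, 2.50 and 2.91 CPM in shDNMT1 and 8.19 and 5.24 CPM in shDNMT3B, against 129.7 and 100.2 CPM in shNC. Its log2 fold changes were -1.95, -5.41 and -4.10. LGALS3BP, a secreted galectin-3 binding glycoprotein, had 14.2 and 19.3 CPM in shUHRF1, 2.93 and 3.07 CPM in shDNMT1 and 15.2 and 12.7 CPM in shDNMT3B, against 53.2 and 57.1 CPM in shNC. Here shDNMT3B lay with shUHRF1 and not with shDNMT1.

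EPSTI1, an interferon-responsive gene linked to epithelial-stromal interaction, had 4.65 and 5.66 CPM in shUHRF1, 0.706 and 0.416 CPM in shDNMT1 (13 and 8 counts) and 1.48 and 0.967 CPM in shDNMT3B, against 22.3 and 27.1 CPM in shNC. It lay furthest below shNC of the members in shDNMT1 (log2 -5.45 ± 0.25, SE, edgeR adjusted p = 9.68e-08). SAMD9 and SAMD9L, paralogs on chromosome 7 that restrict poxviruses and restrain growth, were called lower in all 3 lines. SP100 and SP110, proteins of nuclear bodies, were too, with SP100 at the small end (-0.70, -0.70 and -0.94). CMPK2, a mitochondrial nucleotide kinase, was lower by 2.42, 3.31 and 3.5 on the log2 scale. It lies against RSAD2 on the opposite strand, with the same uncertainty about strand. In all, 30 members were called lower in 3 of 3 lines, 7 in 2 lines, 4 in 1 line and 4 in none (TRIM14, IFITM2, LAMP3 and NMI). LAMP3 stayed at or under 1.10 CPM in 16 of 16 libraries, so that little can be said of it at this depth.

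**Figure D3:**
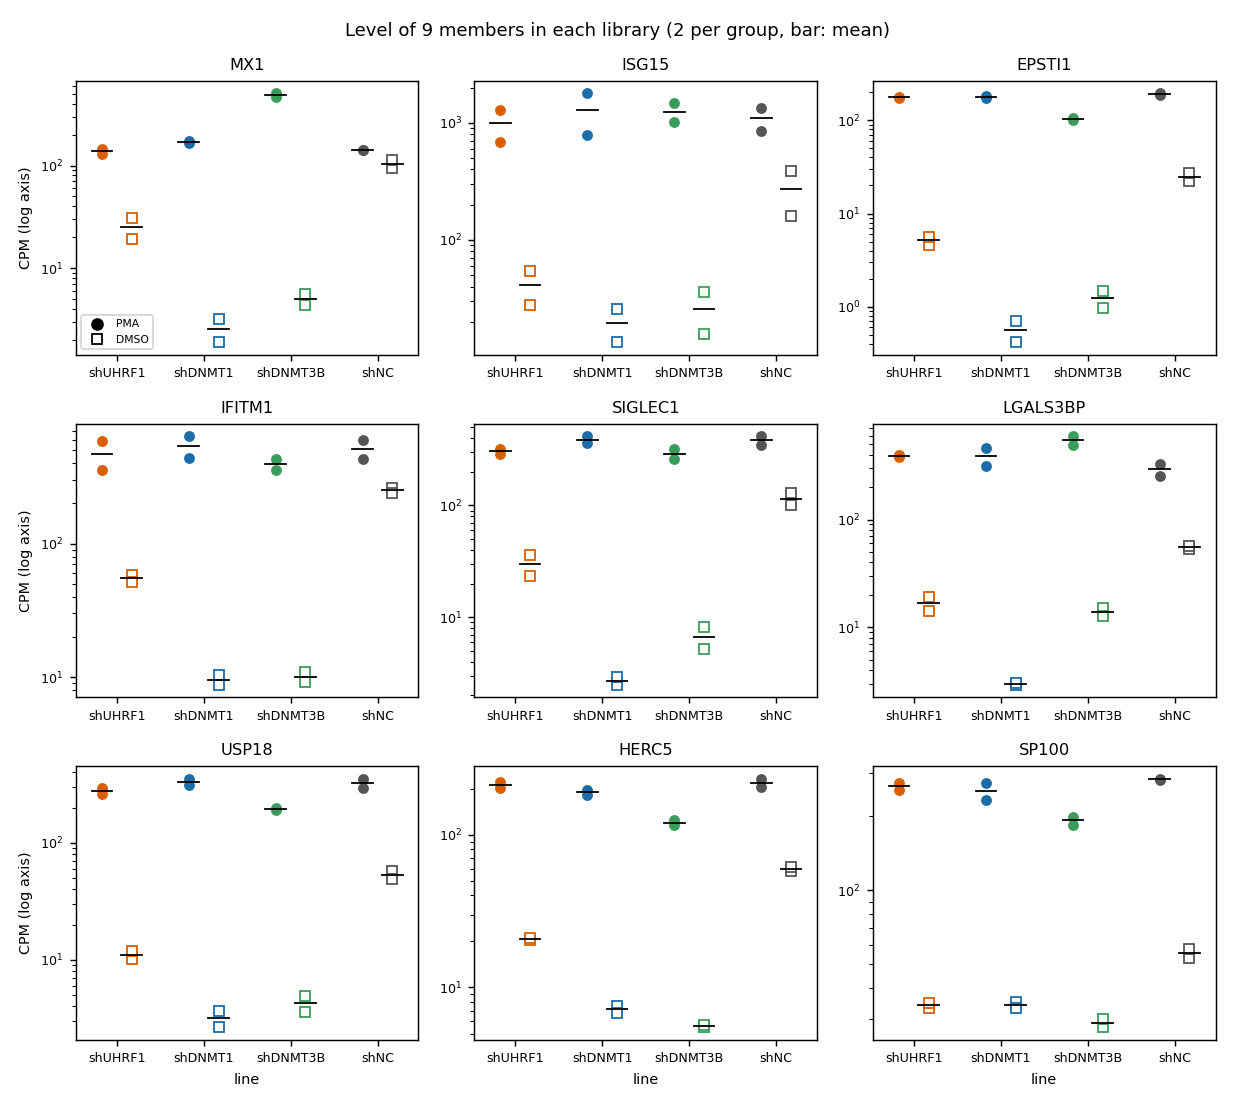
CPM on a log axis for 9 members in the lines shUHRF1, shDNMT1, shDNMT3B and shNC, with filled circles for PMA and open squares for DMSO. Each point is 1 library and each bar the mean of 2, and the open squares of shNC lie above those of the targeting lines in every panel.

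The 3 targeting lines were then set against each other in DMSO, a comparison added after the data had been seen. In shDNMT1 against shUHRF1 20 members were called lower and 0 higher (edgeR, 1.28% and 0.151% of all genes), with a median log2 fold change of -1.01. At an unadjusted p under 0.05, 31 were lower and 1 higher. The largest differences were SIGLEC1 (-3.46), MX1 (-3.29) and EPSTI1 (-3.19). In shDNMT3B against shUHRF1 15 were called lower and 0 higher (1.71% and 2.66% of all genes), led in size by TRIM22 (-2.84), with 24 and 1 at an unadjusted p. In shDNMT3B against shDNMT1 9 were called higher and 1 lower (4.73% and 1.61% of all genes), led by LGALS3BP (2.21), ISG20 (1.88) and SIGLEC1 (1.31), with TDRD7 the lower one (-0.69). The mean levels stood in the order shNC, shUHRF1, shDNMT3B, shDNMT1 for 24 members and shNC, shUHRF1, shDNMT1, shDNMT3B for 14. They stood in the order shNC, shDNMT3B, shUHRF1, shDNMT1 for 4 and shNC, shDNMT1, shUHRF1, shDNMT3B for 3, so that shNC was highest for 45 of 45. With the libraries paired by number the counts of lower members were 31 in shDNMT1 against shUHRF1 and 26 in shDNMT3B against shUHRF1. Without either library of shDNMT1 DMSO the first fell to 12 or 13, and the 9 higher members of shDNMT3B against shDNMT1 to 2 or 3. Leaving out library 1 of shDNMT3B DMSO gave 3 of these, and leaving out any 1 library of shNC PMA or shDNMT3B PMA gave 5. The 1 lower member was lost without either library of shDNMT1 DMSO or library 1 of shDNMT3B DMSO and became 2 without library 2 of shDNMT3B DMSO.

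The PMA response asked how the effectors changed as the cells took on macrophage features. After PMA 42 members were called higher and 0 lower in shUHRF1, 42 and 0 in shDNMT1, 43 and 0 in shDNMT3B, and 37 and 0 in shNC (edgeR). PMA changed a large part of the transcriptome, and 29.4% of all genes were called higher in shUHRF1, 28.6% in shDNMT1, 25.2% in shDNMT3B and 28.4% in shNC. Genes called lower made up 25.5%, 24.1%, 19.7% and 26% in the same lines. No member was lower at an unadjusted p under 0.05 in any line or by DESeq2. In shNC, 1 member (NMI) was called lower with the libraries paired by number or with upper-quartile factors, and the count was also 1 without library 2 of shNC DMSO. The median log2 fold change of the members was 2.95 in shUHRF1, 4.19 in shDNMT1, 3.48 in shDNMT3B and 1.51 in shNC, and that of all genes lay between -0.01 and 0.02. With upper-quartile factors the median of all genes was -0.31 in shUHRF1, -0.25 in shDNMT1, -0.22 in shDNMT3B and -0.29 in shNC. The shares of all genes called higher were then 22.9%, 22.9%, 20% and 22.4% in that order, and those called lower 34.7%, 32.2%, 27.5% and 34%. A total of 37 members were called higher in 4 of 4 lines.

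In shNC the largest rise among the members was that of ISG20, with 72.3 and 73.3 CPM in PMA against 4.89 and 5.21 CPM in DMSO (log2 3.85 ± 0.17, SE, edgeR adjusted p = 2.12e-09). BATF2, a transcription factor of the basic leucine zipper family induced by interferon, had 50.3 and 42.2 CPM in PMA against 4.10 and 4.04 CPM in DMSO in shNC (3.51 ± 0.18, edgeR adjusted p = 8.69e-09). EPSTI1 (2.94), MX2 (2.61) and SP100 (2.35) completed the 5 smallest adjusted p-values. Not called in shNC were MX1, TDRD7, TRIM14, BST2, IFITM2, IFITM3, LAMP3 and NMI. MX1 had 142 and 142 CPM in shNC PMA against 95.1 and 114 CPM in shNC DMSO (0.44, edgeR adjusted p = 0.12). NMI, an interferon-induced leucine zipper protein, had 77.4 and 65.0 CPM in shNC PMA against 112 and 82.4 CPM in shNC DMSO.

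In the targeting lines the same genes started from lower levels. In shDNMT1, ISG20 had 111 and 88.4 CPM in PMA against 0.217 and 0.208 CPM in DMSO, a rise of 8.83 ± 0.24 on the log2 scale (SE, edgeR adjusted p = 1.82e-10). EPSTI1 had 174 and 181 CPM in shDNMT1 PMA against 0.706 and 0.416 CPM in shDNMT1 DMSO (8.30 ± 0.27), and USP18 had 354 and 308 CPM against 2.66 and 3.69 CPM in the same groups (6.70 ± 0.25). In shDNMT3B the largest rise was that of MX1, with 467 and 503 CPM in PMA against 4.39 and 5.60 CPM in DMSO (6.60 ± 0.30, edgeR adjusted p = 3.93e-09). HELZ2 rose there by 4.75 and HERC5 by 4.42 on the log2 scale. In shUHRF1, ISG20 rose by 5.47, EPSTI1 by 5.10, MX2 by 4.73, BATF2 by 4.62 and HERC5 by 3.34. TRIM14 was called in shDNMT1 alone, NMI in shDNMT3B alone and LAMP3 in no line, and the differences between lines for these 3 genes were not read from those calls.

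**Figure D4:**
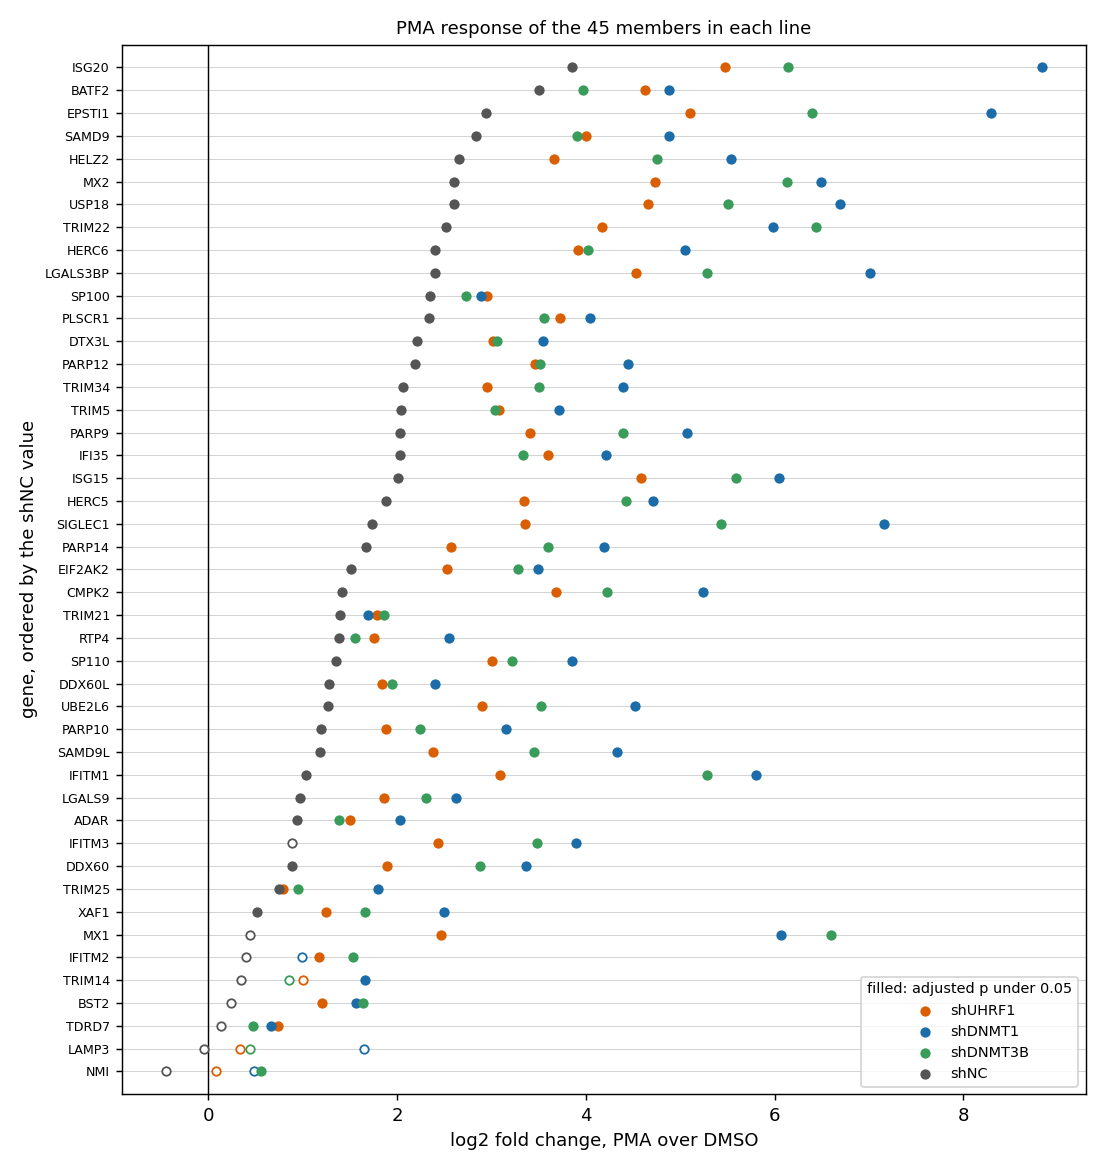
Log2 fold change of PMA over DMSO (x axis) for 45 members ordered by their shNC value (y axis), in shUHRF1, shDNMT1, shDNMT3B and shNC. Filled points have an adjusted p under 0.05, and the shNC points lie left of the points of the targeting lines in every row.

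After PMA the lines lay closer together by fold change than in DMSO, while the counts of calls depended on whether libraries were paired by number. In shUHRF1 against shNC 0 members were called in either direction (edgeR, with 2.04% of all genes higher and 1.65% lower), and the log2 fold changes ran from -0.56 to 0.41 with a median of -0.11. The standard errors of these values had a median of 0.20, so small differences would have been missed. At an unadjusted p under 0.05 0 were higher and 4 lower, DESeq2 called 2 lower and the DEGES exact test 0, and with the libraries paired by number 6 were called lower. The count was 1 lower without either library of shDNMT1 PMA, which enter the same fit but not this comparison. In shDNMT1 against shNC, 1 member was called higher and 1 lower (8.5% and 6.35% of all genes). These were SP110 (0.56 ± 0.15, SE, edgeR adjusted p = 0.026) and DTX3L (-0.56 ± 0.14, edgeR adjusted p = 0.021), with a median of 0.07. With the libraries paired by number these counts were 8 and 3. Both calls were lost without either library of shNC PMA, and without library 1 of shDNMT1 PMA. The SP110 call was lost without library 2 of shDNMT1 PMA too.

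The shDNMT3B line differed more. After PMA 13 members were called lower and 2 higher than in shNC (9.05% and 11.3% of all genes), with a median log2 fold change of -0.37. MX1 had 467 and 503 CPM in shDNMT3B PMA against 142 and 142 CPM in shNC PMA (1.78 ± 0.24, SE, edgeR adjusted p = 0.00027). LGALS3BP had 596 and 487 CPM in shDNMT3B PMA against 328 and 256 CPM in shNC PMA (0.89, edgeR adjusted p = 0.012). DTX3L had 168 and 157 CPM in shDNMT3B PMA against 387 and 384 CPM in shNC PMA (-1.25 ± 0.15, edgeR adjusted p = 0.00011), and HERC6 had 29.6 and 35.6 CPM against 76.1 and 79.0 CPM in the same groups (-1.25 ± 0.26, edgeR adjusted p = 0.0051). The call of HERC6 was lost without library 1 of shDNMT3B PMA (log2 -1.12, edgeR adjusted p = 0.061). HERC5 (-0.87) and EPSTI1 (-0.88) were also called lower. With the libraries paired by number, 24 were lower and 3 higher. The count of lower members was 5 without library 1 and 6 without library 2 of shNC PMA, and 3 without library 1 and 5 without library 2 of shDNMT3B PMA. The 2 higher members became 1 without library 2 of shNC PMA or without library 1 of shDNMT3B PMA. Between the lowest and the highest line mean, the median ratio over members was 1.47 in PMA and 4.99 in DMSO.

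**Figure D5:**
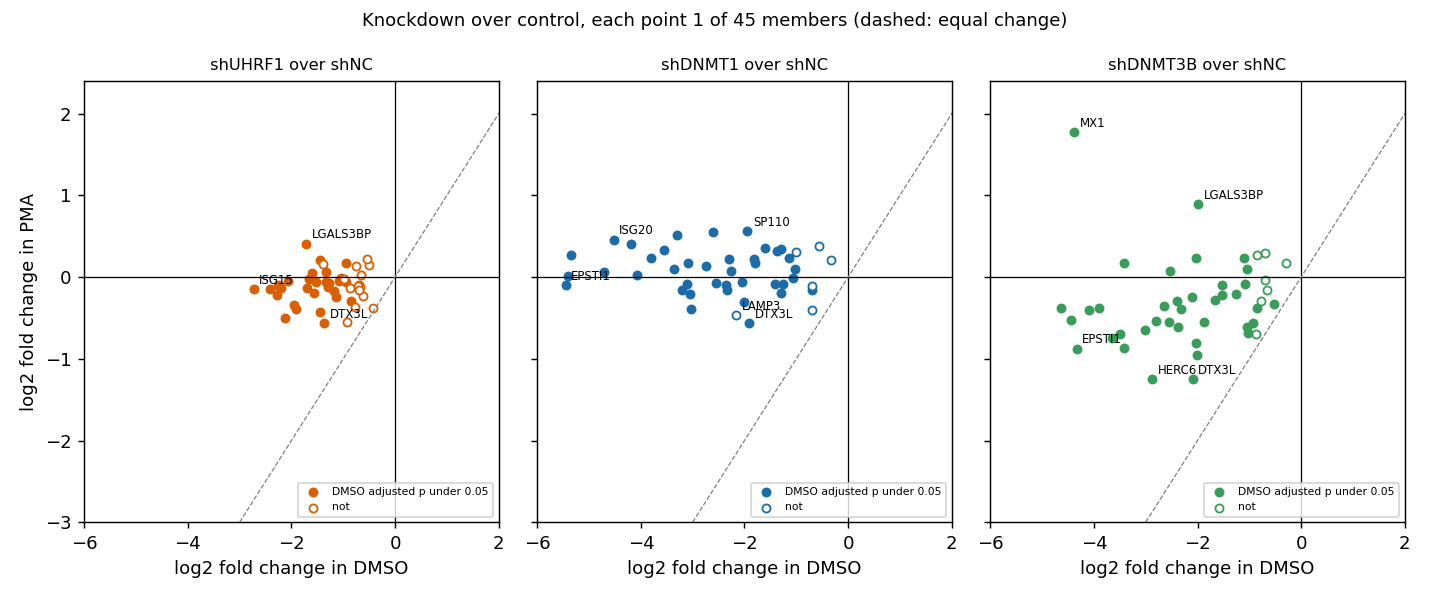
Log2 fold change over shNC in DMSO (x axis) and in PMA (y axis) for 45 members in shUHRF1, shDNMT1 and shDNMT3B. Filled points have an adjusted p under 0.05 in DMSO, the dashed line marks equal change, and most points lie left of 0 on the x axis and near 0 on the y axis.

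The difference of the PMA response from that of shNC follows by arithmetic from the DMSO and the PMA comparisons and was tested as an interaction. It was larger in the targeting line for 15 members in shUHRF1, 35 in shDNMT1 and 30 in shDNMT3B by edgeR, where 0.739%, 5.64% and 5.08% of all genes were called larger and 0.109%, 1.07% and 1.7% smaller. No member had a smaller response by call, at an unadjusted p under 0.05 or with DESeq2. The medians were 1.12, 2.26 and 1.44, beside 0.06, 0.06 and 0.07 over all genes. In shDNMT1 the largest differences were those of MX1 (5.63), SIGLEC1 (5.42), EPSTI1 (5.35) and ISG20 (4.98). In shDNMT3B they were MX1 (6.16 ± 0.36, SE, edgeR adjusted p = 3.5e-06) and IFITM1 (4.25), and among the called in shUHRF1 CMPK2 (2.27), EPSTI1 (2.16) and MX2 (2.13). The count in shUHRF1 was 38 with the libraries paired by number and 29 with DESeq2. It was 9 without library 2 of shNC DMSO, 8 without library 1 of shUHRF1 DMSO, 7 without library 1 of shNC PMA and 2 without library 2 of shNC PMA. The call of CMPK2 there was lost in these 4 fits and also without either library of shUHRF1 PMA, shDNMT1 PMA or shDNMT3B PMA. Without library 2 of shNC PMA the calls of HERC5, SP110 and USP18 were lost as well.

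The other genes of the pathway were read from lists chosen with earlier results of these data known. Over all genes in DMSO, 1.15%, 3.39% and 2.89% were called lower than in shNC in shUHRF1, shDNMT1 and shDNMT3B, and 0.17%, 0.57% and 1.62% higher. Of 18 OAS, IFIT, GBP and related genes, 14 were called lower in shUHRF1, 17 in shDNMT1 and 15 in shDNMT3B. In shNC after PMA 17 of them were called higher, where 28.4% of all genes were. Of 10 interferon transcription factors, 4 were called lower and 0 higher in each of shUHRF1, shDNMT1 and shDNMT3B in DMSO, with medians of -0.51, -0.75 and -0.63. Among those called, IRF7, the factor that amplifies interferon production, had 14.5 and 12.9 CPM in shUHRF1, 3.64 and 4.05 CPM in shDNMT1 and 7.03 and 8.25 CPM in shDNMT3B, against 47.8 and 46.3 CPM in shNC. Receptor and kinase genes, with IFNAR1, IFNAR2, JAK1 and TYK2 among the 8 tested, had 0 calls in any targeting line in DMSO. Their medians were -0.14, -0.21 and -0.33. With so few genes and the shares above, 0 calls do not set this list apart from other genes. Of 14 tested sensors 4, 6 and 6 were called lower in shUHRF1, shDNMT1 and shDNMT3B, with RIGI and IFI16 among them. Of 7 negative regulators 0, 0 and 1 were, too few to be read beside the shares over all genes. Among 14 interferon genes only IFNB1 passed the count filter. It had 0.242 and 0.19 CPM in shUHRF1, 0 and 0.052 CPM in shDNMT1 and 0.106 and 0.102 CPM in shDNMT3B, against 0.210 and 0.425 CPM in shNC in DMSO, and 1.72 and 1.51 CPM in shDNMT1 PMA against 0.526 and 0.217 CPM in shNC PMA. Against shNC in PMA its log2 fold changes were 0.79 in shUHRF1, 2.05 in shDNMT1 and 0.60 in shDNMT3B, with a call in shDNMT1 alone (8.5% of all genes). These levels are near the floor. A gene can pass the filter through a single high group, and shDNMT1 PMA was the highest given here, so nothing is concluded from IFNB1. Of 8 macrophage markers in DMSO, 1 was called lower and 0 higher in shUHRF1, 2 and 0 in shDNMT1, and 1 and 1 in shDNMT3B, at medians of -0.06, -0.56 and -0.11. In shDNMT1, where MMP9 and LPL were those called, the list thus lay in the direction of the members, and its part in their change was not tested.

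The numbers of the libraries also left a mark on some members. In 8 of 8 groups the library numbered 1 was above the library numbered 2 for 9 members, among them ISG15 (ratios of 1.45 to 2.45), IFITM3 (1.47 to 2.12) and IFITM2 (1.31 to 1.99), and below it for 7, among them TRIM14 (0.387 to 0.891). Mitochondrial counts were also higher in the libraries numbered 1, and their part in this was not tested. In PMA against DMSO in shNC, 44 members were higher within the libraries numbered 1 and 42 within those numbered 2. In shDNMT3B against shNC in PMA, 34 members were lower within libraries numbered 1 and 32 within those numbered 2, with medians of -0.39 and -0.29.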

How the data were processed

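Poly(A) RNA of THP-1 cells was sequenced with a stranded TruSeq mRNA kit in 16 libraries, 2 for each of 8 groups. The authors deposited raw gene counts for 60676 genes. The submitters' processing notes name STAR 2.4.0b, Cufflinks 2.1.1, HTSeq 0.6.1p1, edgeR and the hg38 build, and the strand setting of the counting is not given in the sources used here. In 12 of 16 samples the description named another library than the title, so each column was assigned by its own name. Symbols came from GENCODE 44, and 319 genes had none.

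Counts were filtered with filterByExpr (minimum count 10, minimum total 15, 16503 genes kept), scaled by TMM and tested with edgeR 4.0.16 (R 4.3.3), using the robust quasi-likelihood test over all 16 libraries with Benjamini-Hochberg adjustment over all tested genes and a threshold of 0.05. CPM values use the TMM-scaled library totals. Standard errors (SE) were worked out from each log2 fold change and the F statistic of its test, and are approximate. The alternatives were DESeq2 1.42.0, upper-quartile factors, no count filter, DEGES normalization in 3 rounds followed by an exact test (near the TCC method of the study), a block for the library number, and leaving out every library in turn. Comparisons between targeting lines, counts at an unadjusted p and values within a library number were added after the data had been seen. Deviations of same-numbered libraries from their group means correlated at 0.22 to 0.51 in 28 of 28 pairs of groups. The libraries thus look paired by number. The main fit and its p-values leave this pairing out, and only the block uses it. The common dispersion was 0.0439, and 0.0115 with the block.

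The members, gene lists and tests were chosen with earlier results of these data known. Members shown per library were the 5 called with the smallest adjusted p in each comparison and the called member with the largest change, and other members were picked as examples of their role after their values were seen. The fit was tested on simulated data. Tables were handled with Python 3.11.15, pandas 2.3.3 and NumPy 2.4.6, and figures drawn with matplotlib 3.10.9.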

Additional observations from a re-analysis of the deposited data

Results flagged for a closer look

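These members had a PMA response that differed from that of shNC by the interaction test of edgeR, with the difference given on the log2 scale as targeting line minus shNC. For shUHRF1 they were CMPK2 (2.27), EPSTI1 (2.16), MX2 (2.13), USP18 (2.06), SP110 (1.65) and HERC5 (1.46), with adjusted p-values between 0.0049 and 0.037. Without library 2 of shNC PMA the calls of USP18, SP110, HERC5 and CMPK2 were lost (adjusted p between 0.061 and 0.11), and that of CMPK2 was lost in 10 of the 16 fits that left out a library. For shDNMT1 they were MX1 (5.63), EPSTI1 (5.35), ISG20 (4.98), MX2 (3.88) and HERC5 (2.84), with adjusted p-values between 1.33e-06 and 3.93e-06. For shDNMT3B they were MX1 (6.16), IFITM1 (4.25), MX2 (3.53), EPSTI1 (3.45) and HERC5 (2.55), with adjusted p-values between 3.5e-06 and 4.45e-05. The 3 differences share the 4 shNC libraries, and each is the PMA comparison minus the DMSO comparison of the same line.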

How the results depend on the processing

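Counts of called members kept within 1.5 times of their value under DESeq2, upper-quartile factors, no count filter, the DEGES exact test and the replicate block, apart from the following. With the replicate block, which pairs libraries by number, the lower calls were 6 in shUHRF1, 3 in shDNMT1 and 24 in shDNMT3B against shNC in PMA, 1 in the shNC PMA response, 31 in shDNMT1 and 26 in shDNMT3B against shUHRF1 in DMSO and 2 in shDNMT3B against shDNMT1, and the higher calls were 8 in shDNMT1 against shNC in PMA, 1 in shDNMT3B against shUHRF1 and 38 in the shUHRF1 response difference. DESeq2 gave 2 lower in shUHRF1 against shNC in PMA, 29 for the shUHRF1 response difference and 2 lower in shDNMT3B against shDNMT1. Upper-quartile factors gave 1 lower in the shNC PMA response, 1 lower in shUHRF1 and 2 higher in shDNMT1 against shNC in PMA. Without a filter, shDNMT1 against shNC in PMA had 0 higher and 0 lower, and shDNMT3B against shDNMT1 had 2 lower. The exact test gave 0 lower in shDNMT1 against shNC in PMA, and 5 higher and 0 lower in shDNMT3B against shDNMT1. The causes were not tested.

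Leaving out 1 library at a time gave 0 to 1 lower in the shNC PMA response. In DMSO it gave 18 to 30 lower in shUHRF1 against shNC. In PMA it gave 0 to 1 lower in shUHRF1, 0 to 1 higher and 0 to 1 lower in shDNMT1, and 1 to 2 higher and 3 to 14 lower in shDNMT3B. The shUHRF1 response difference had 2 to 15, shDNMT1 against shUHRF1 12 to 19 lower, and shDNMT3B against shDNMT1 2 to 9 higher and 0 to 2 lower. No named member reversed its direction. With 2 libraries a group, members under a few CPM, such as LAMP3 and ISG20 in DMSO, are limited by depth.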
